A study of Drosophila melanogaster with 64 samples.

Results

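The odorant-binding protein (Obp) genes were followed in fly heads after traumatic brain injury (TBI). Members were all rows of the deposited count table whose gene symbol, matched from the FlyBase identifier, began with Obp and a digit, which gave 51 of the 17481 gene rows. Poly(A) RNA was sequenced from 64 libraries of 20 whole heads each, all from male Drosophila melanogaster of the strain w[1118] (Bloomington stock 5905), which carries a white eye mutation in every group. The labels give rearing on standard medium at 25 C under a light and dark cycle of 12 h each. The 3 conditions were an uninjured control at 3 d of age, a sham procedure at 3 d of age, and severe TBI at 3 d of age. Sham and TBI heads were taken at 1, 3, 6, 12 and 24 h and at 3, 7, 10 and 15 d, so the later groups were also older flies. Groups held 3 libraries, apart from 2 sham and 2 TBI libraries at 15 d, and each came from pooled heads. Libraries were made on 2 separate days. Library day 2 held the control and the times from 1 to 24 h (33 libraries), and library day 1 held the control and the times from 24 h to 15 d (31 libraries), so 9 RNAs were prepared on both days by the labels. The labels name 55 separate RNAs, whereas the series' own account gives 52, and this difference could not be resolved here. The days were analysed apart.

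Odorant-binding proteins are small secreted proteins, folded around disulfide bonds, that support cells release into the fluid bathing the dendrites of smell and taste neurons. They bind odorants, pheromones or other small lipophilic molecules and carry or buffer them. Many members are made outside the antenna, in taste bristles, fat body, glia or the male reproductive tract, so a whole head holds several separate sources of Obp transcripts. In bulk RNA of this kind, fewer cells of a type and less RNA per cell cannot be told apart.

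The heads held a family with a few abundant members and many that were nearly silent. Reads were found for 48 of the 51 members, and 32 passed the filter on low counts on at least 1 library day (29 on day 2, 31 on day 1, 28 on both). The family took 0.0997% to 0.210% of the gene counts of a library on day 2 and 0.183% to 0.517% on day 1, where libraries held 18552546 to 44858869 and 9163576 to 26385804 gene counts. The 6 highest members made up 71.2% of the family's summed CPM (counts scaled to a common library total) on day 2 and 81.1% on day 1. On day 2 31 members averaged under 1 CPM, and on day 1 27 did.

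Per kilobase of exon, Obp99c stood highest on day 1 at a mean of 761 CPM per kb, with Obp19d at 753 and Obp99b at 672. On day 2, which held none of the older flies of day 1, the order was different. These means, and the family shares above, thus mix library day with age. Obp57c stood at 533 CPM per kb and Obp56g at 468, above Obp99c at 212 and Obp57a at 144. Obp99b, whose product is known from the fat body of male heads, was at 75.4 CPM per kb on day 2. Obp83a, an antennal member, was at 2.26 and 0.551 CPM per kb on days 1 and 2.

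**Figure D1:**
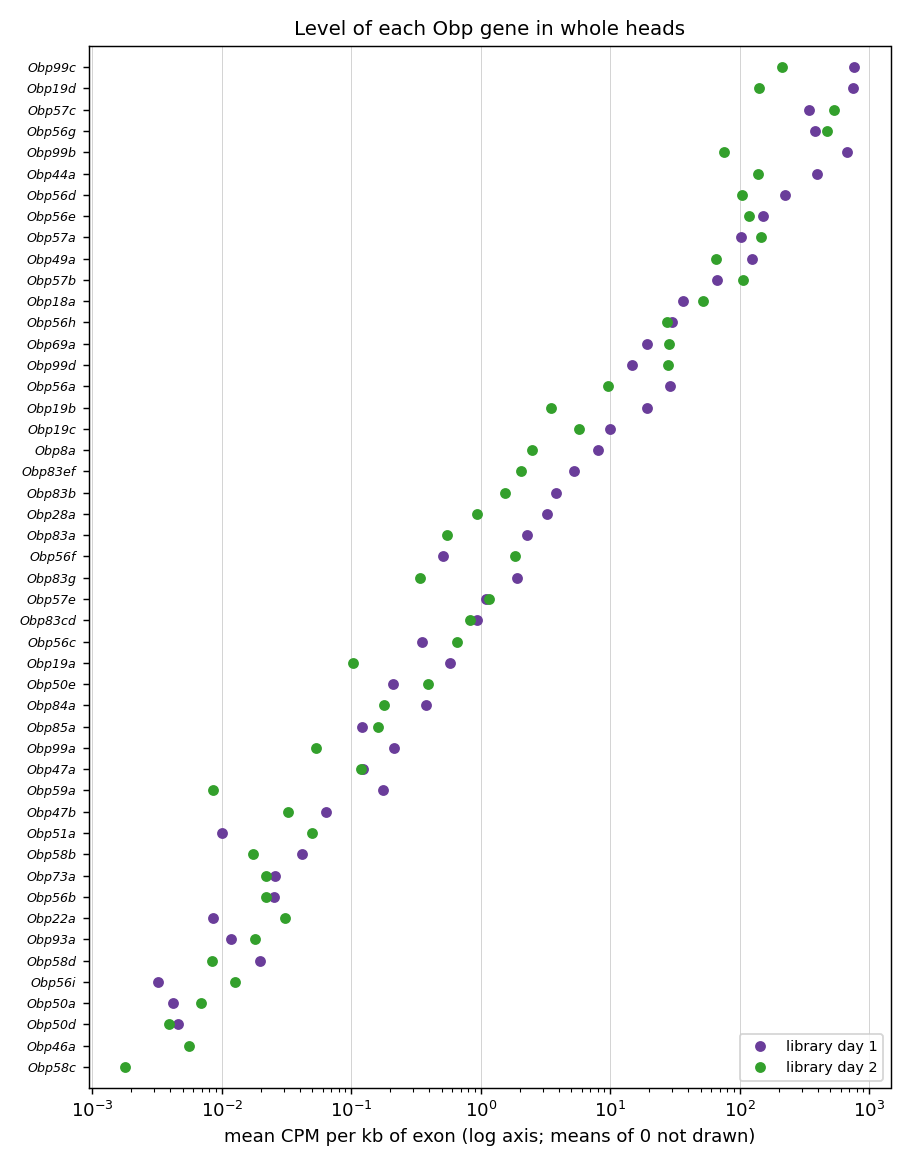
Mean level of the 48 Obp genes with reads, in CPM per kb of exon on a log axis, with 1 point per library day. Members range from Obp99c, Obp19d and Obp57c at the top to members such as Obp58c and Obp46a with a handful of reads in all libraries.

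The 19 members that did not pass the filter on either day never exceeded 0.699 CPM in a library. Of these, 3 had no read in any library, namely Obp50b, Obp50c and Obp57d. In the Ensembl release 115 annotation of BDGP6.54, Obp50b and Obp50c share all 1648 bp of their exons, and all 1488 bp of Obp57d lie within exons of Cpr57A on the same strand, so reads there could be dropped as ambiguous. Positions below are from that annotation and may differ from the build of the authors, which no source used here gives.

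The family lies largely in runs. Of the 51 members, 29 lie on chromosome arm 2R, 12 on 3R, 6 on X, 2 on 2L and 2 on 3L, and 31 members lie in 9 runs of neighbours less than 10000 bp apart. The exons of some members overlap a gene on the other strand. Obp44a shares 205 of 1076 bp with Pabp2, Obp83ef shares 92 of 901 bp with Obp83cd, and Obp56e shares 449 of 532 bp with an antisense RNA. The kit keeps strand, but whether reads were counted by strand is not stated, so counts of these members may include reads of the partner.

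Labelled as whole heads, the samples were checked against marker genes. All 10 neuronal, all 12 photoreceptor and all 10 glial markers passed the filter, whereas only 16 of 40 antennal markers did so on day 2 and 14 on day 1. The odorant receptor gene Or22a never rose above 0.230 CPM and was at 0 in 19 of the 56 libraries in which the antennal gene Obp83a did not exceed 3 CPM. The antennal genes Os-C and a5 had medians of 0.178 and 0 CPM in those 56 libraries, and a5 was at 0 in 45 of them. In the other 8 libraries Os-C was at 1.47 to 15.4 CPM and a5 at 1.73 to 4.50 CPM. The 56 libraries were picked by low Obp83a, so their low antennal levels are a description only. No gene of the male reproductive list of 10 passed the filter, and the summed level of that list never exceeded 1.12 CPM in any group. Other antennal genes were present in the 56 libraries, with medians of 2.59 CPM for lush and 1.52 CPM for Orco, and the summed level of the 40 antennal markers was 54.5 to 153 CPM over all libraries.

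Of the 32 members tested, 13 passed the test between TBI and sham at 1 time or more (edgeR quasi-likelihood test, Benjamini-Hochberg adjusted p under 0.05 over all genes). The share of all genes called at 1 time or more is not given here, so the count of 13 has no background beside it. These 13 members made 22 calls among 300 pairs of a member and a comparison (7.33%), where 7.05% of all gene and comparison pairs were called. With the 24 h RNAs counted once, on day 2, 16 of 269 pairs were called (5.95%), against 6.17% over all genes. These tallies include Obp19a, Obp59a and Obp84a, kept on day 1 alone through libraries in which they were high. The tallies are therefore descriptions only. The calls fell into 4 sets: Obp99d and Obp44a from 6 to 24 h, Obp83ef and the Obp57 cluster at 1 to 3 h, antennal members in a few libraries at 24 h and 10 d, and single members elsewhere.

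**Figure D2:**
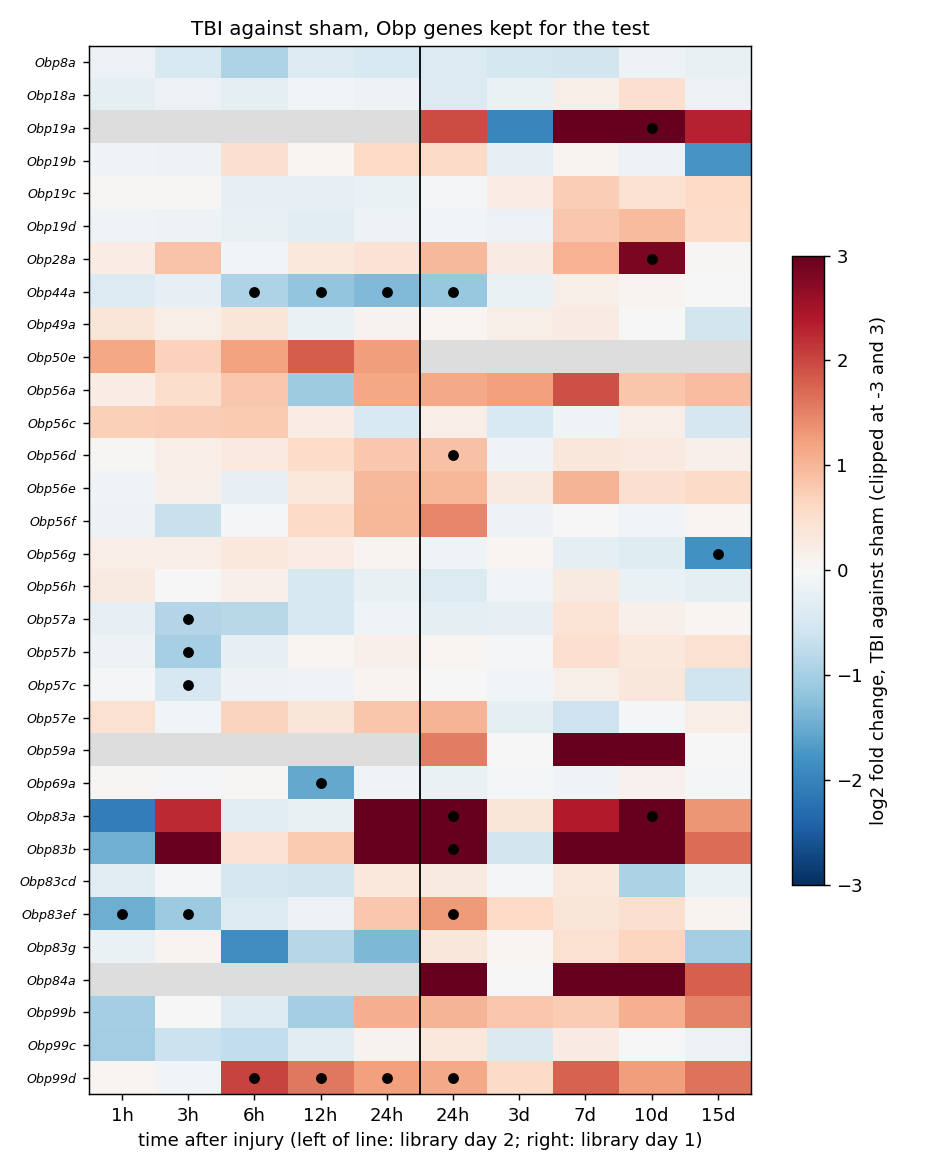
Log2 fold change of TBI against sham for the 32 Obp genes kept for the test, by time after injury, with library day 2 left of the line and day 1 right of it. Black dots mark calls at an adjusted p under 0.05, grey cells were not tested, and colours stop at -3 and 3. Obp44a and Obp99d carry 4 dots each.

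Obp99d rose after injury and was the member raised at the most times. At 6 h its 3 TBI libraries held 57.8, 36.0 and 26.4 CPM and its sham libraries 10.5, 11.1 and 8.11 CPM. The means were 40.1 ± 16.1 and 9.89 ± 1.57 CPM (SD, n = 3 each), and the groups did not overlap. The log2 fold change was 2.03 ± 0.34 (SE) with an edgeR adjusted p of 0.000134. Obp99d lies on 3R (BDGP6.54, chr3R:29714505-29715004, plus strand) as a neighbour of Obp99b, and no function is given for it here.

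The rise of Obp99d was smaller at 12 h and 24 h. At 12 h the TBI libraries held 11.5, 13.1 and 16.2 CPM and the sham libraries 5.11, 3.48 and 5.08 CPM, a log2 fold change of 1.57 ± 0.35 (edgeR adjusted p = 0.00334). At 24 h on library day 2 the values were 9.05, 15.4 and 12.7 CPM against 4.52, 4.26 and 6.91 CPM (1.22 ± 0.34, edgeR adjusted p = 0.024). The TBI libraries again stood wholly above the sham libraries at both times. The same 24 h RNAs prepared on day 1 gave 1.13 ± 0.37 (edgeR adjusted p = 0.0428), which repeats the measurement and is no further sample. On each day the 24 h call was lost without sham replicate 1 or 2 or TBI replicate 2 or 3, at log2 fold changes from 1.04 to 1.20 on day 2 and from 0.97 to 1.06 on day 1.

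At 1 h and 3 h Obp99d was not called, at means of 12.2 after TBI against 11.7 CPM after sham and 15.7 against 16.5 CPM. At 7 d it held 10.97, 14.6 and 8.04 CPM after TBI and 3.33, 4.40 and 2.14 CPM after sham, without overlap. There the log2 fold change was 1.76 ± 0.42 and the edgeR adjusted p 0.0845, while DESeq2 gave an adjusted p of 0.00371. At 10 d and 15 d the TBI libraries also lay wholly above the sham libraries without passing the test. In all, TBI lay wholly above sham at 6 of 9 times, the 24 h RNAs being counted once. A joint test gave an edgeR adjusted p of 0.0156 for a difference of the Obp99d response among the 5 times of library day 2. That test called 3 of 29 members, where 3.68% of all genes were called. On day 1 edgeR called 0 of 31 members in it, where 0.407% of all genes were called, 8 members had an unadjusted p under 0.05 and DESeq2 called 1. The unadjusted and DESeq2 counts have no share over all genes beside them.

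Obp44a fell after injury over the same hours. The gene (BDGP6.54, chr2R:8134170-8135315, minus strand) encodes a protein described in glia of the larval brain, where it carries fatty acids. At 6 h its TBI libraries held 91.8, 111 and 78.8 CPM and its sham libraries 221, 159 and 150 CPM. At 12 h the values were 78.9, 71.3 and 97.2 CPM against 174, 169 and 215 CPM. The 3 TBI libraries lay below all sham libraries at both times.

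The log2 fold change of Obp44a was -0.91 ± 0.26 at 6 h (edgeR adjusted p = 0.0212) and -1.17 ± 0.26 at 12 h (edgeR adjusted p = 0.00429). The 6 h call was lost without sham replicate 1 (-0.73), TBI replicate 1 (-0.90) or TBI replicate 3 (-0.80). At 24 h on day 2 the TBI libraries held 28.7, 91.4 and 57.6 CPM and the sham libraries 144, 143 and 155 CPM, a log2 fold change of -1.31 ± 0.27 (edgeR adjusted p = 0.00165). The same RNAs gave -1.14 ± 0.31 on day 1 (edgeR adjusted p = 0.0165), and without the lowest library, TBI replicate 1, the value there was -0.79 with an adjusted p of 0.0883. Without TBI replicate 3 it was -1.10 and did not pass either. From 3 d on the groups overlapped, at 472 ± 112 against 539 ± 111 CPM at 3 d (SD, n = 3 each). The glial list had 5 of 10 genes lower and 1 higher at 6 h, but 1 lower and 1 higher at 12 h and 0 lower and 1 higher at 24 h on day 2. Its summed level was 1586 to 1738 CPM after TBI and 1668 to 2766 CPM after sham at 6 h. At 12 h it was 1965 to 2413 and 1686 to 2860 CPM, and at 24 h on day 2 1460 to 1919 and 1604 to 2265 CPM. At 24 h on day 1, 2 of 10 glial genes were lower and none higher, with sums of 1663 to 2155 and 1971 to 2463 CPM, and 7 of 10 neuronal markers were lower, with sums of 6215 to 6848 and 7520 to 11174 CPM. No glial or neuronal marker was at 0 in a whole group, and the part of these cell types in the fall of Obp44a was not tested.

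**Figure D3:**
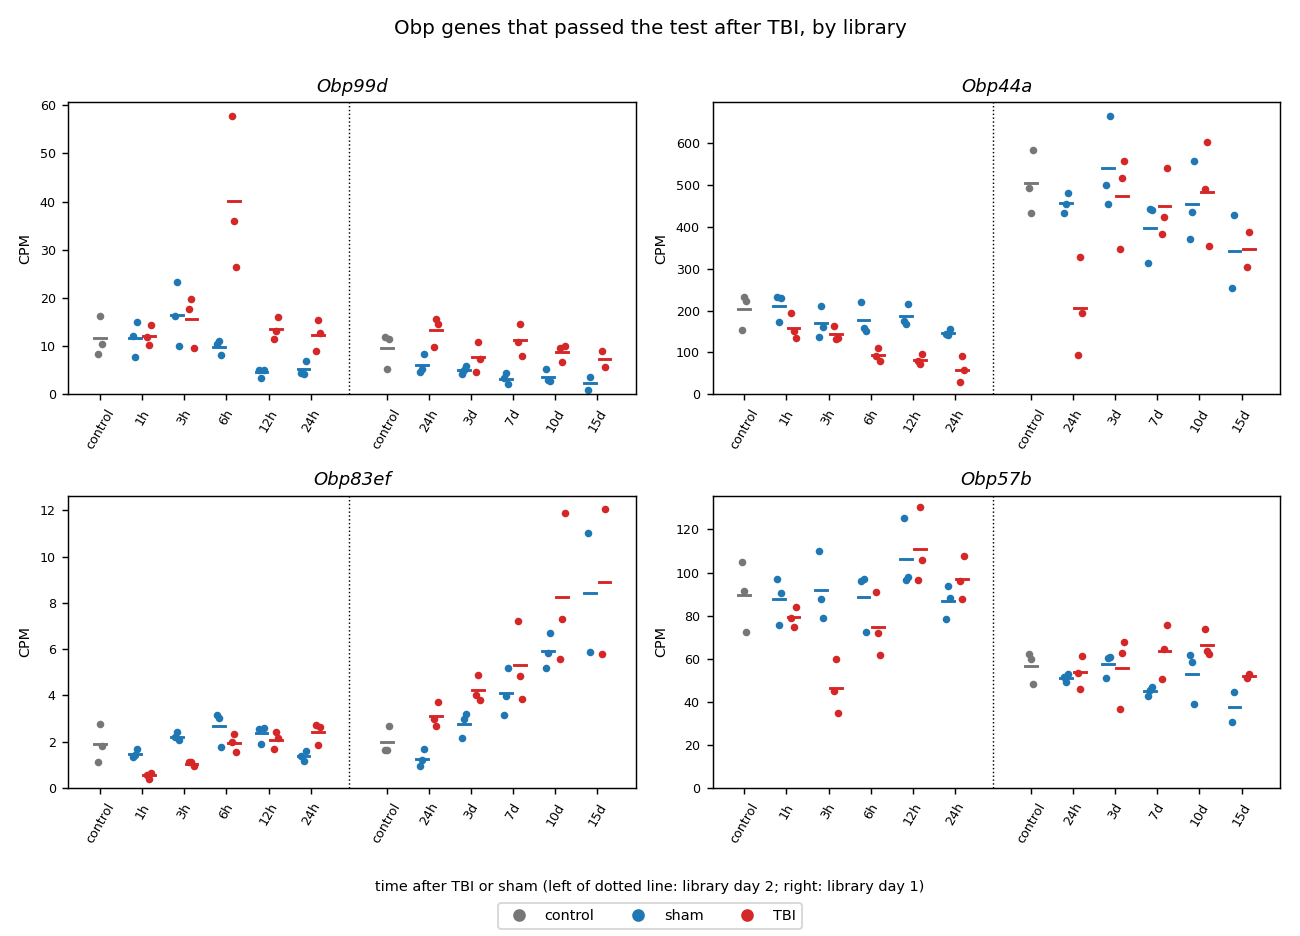
Level in CPM of Obp99d, Obp44a, Obp83ef and Obp57b in every library, by time after TBI or sham, with library day 2 left of the dotted line and day 1 right of it. Points are libraries and bars are group means. Obp99d peaks after TBI at 6 h at 26.4 to 57.8 CPM, and Obp44a is below sham from 6 to 24 h.

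Obp83ef, which belongs to the dimer type of the family, fell within the first hours. At 1 h the TBI libraries held 0.583, 0.405 and 0.647 CPM and the sham libraries 1.36, 1.41 and 1.70 CPM. At 3 h the TBI libraries held 1.11, 1.10 and 0.949 CPM and the sham libraries 2.19, 2.43 and 2.06 CPM. The groups were apart at both times, although at these levels each value rests on few reads.

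Obp83ef was the single member called at 1 h, 1 of 29 tested, where 7.39% of all genes tested were called. Its log2 fold change was -1.46 ± 0.32 at 1 h (edgeR adjusted p = 0.00359) and -1.08 ± 0.27 at 3 h (edgeR adjusted p = 0.00486). At 24 h the direction was the opposite. On day 1 the TBI libraries held 2.97, 2.69 and 3.72 CPM and the sham libraries 0.947, 1.20 and 1.67 CPM, a log2 fold change of 1.28 ± 0.35 (edgeR adjusted p = 0.0145). On day 2 the same RNAs gave 0.80 ± 0.26 with an adjusted p of 0.0582. The day 1 call was lost without sham replicate 1 or 2 or TBI replicate 3, at 1.13 to 1.23. The joint test gave an edgeR adjusted p of 0.00462 for Obp83ef across the times of day 2. The dimer-type neighbour Obp83cd, whose exons share 92 bp with Obp83ef, was not called at any time.

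The Obp57 cluster fell at 3 h. Obp57a, Obp57b and Obp57c lie side by side on 2R (BDGP6.54, chr2R:20503584-20505758, plus strand), and members of this cluster are known from taste bristles. Obp57b held 45.0, 59.8 and 34.8 CPM after TBI and 110, 87.5 and 78.7 CPM after sham, with no overlap. Its log2 fold change was -0.99 ± 0.18 (edgeR adjusted p = 0.000261).

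Obp57c held 252, 270 and 204 CPM after TBI and 355, 362 and 290 CPM after sham, a log2 fold change of -0.47 ± 0.13 (edgeR adjusted p = 0.0103). Obp57a held 60.7, 82.7 and 32.6 CPM against 134, 114 and 72.6 CPM, and here the groups overlapped (-0.87 ± 0.28, edgeR adjusted p = 0.0361). The call of Obp57a was lost without sham replicate 1 or 2 or TBI replicate 1 or 3, at -0.58 to -0.90. That of Obp57c was lost without sham replicate 1 (-0.43) or TBI replicate 3 (-0.37). With Obp83ef these made 4 of 29 members called at 3 h, all lower, where 16.5% of all genes tested were called and 6% were called lower. The median log2 fold change was -0.07 over the members and 0.02 over all genes.

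No taste gene tested outside the Obp57 cluster was called lower at 3 h. Of the 6 tested members of the taste list, which also holds Obp19b, Obp49a and Obp57e, 3 were called lower and none higher. The 3 were Obp57a, Obp57b and Obp57c, and the median log2 fold change of the list was -0.31. Among 10 gustatory neuron markers 1 was called, Gr32a, a receptor gene of bitter-sensing neurons, and it was higher (log2 fold change 0.82 ± 0.21, edgeR adjusted p = 0.00802). The summed gustatory level was 13.1 to 14.6 CPM after TBI and 10.8 to 12.7 CPM after sham, with 3 and 4 of 17 genes at 0 in the whole group. By 12 h Obp57b stood at 111 ± 17.6 CPM after TBI and 106 ± 16.3 CPM after sham (SD, n = 3 each), and the joint test over the times of day 2 gave it an edgeR adjusted p of 0.0365.

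At 6 h 2 of 29 members were called, Obp44a and Obp99d, against 12.1% of all genes. At 12 h 3 of 29 were called against 8.62%, the third being Obp69a, and at 24 h on day 2 2 of 29 against 8.40%. DESeq2 called 7 members at 24 h on day 2. By edgeR the members' shares at these times were 6.9%, 10.3% and 6.9%, near or below the edgeR background. The share of all genes called by DESeq2 is not given here, so its count of 7 has no background beside it. The family's median log2 fold change was -0.15 at 6 h. The median was -0.19 at 12 h and 0.16 at the 24 h time of day 2, beside medians of all genes within 0.01 of 0.

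At 24 h on day 1 6 of 31 members were called, where 15.0% of all genes were. Besides Obp99d, Obp44a and Obp83ef these were Obp56d, Obp83a and Obp83b. Obp56d, known from taste organs and antennae, held 239, 298 and 317 CPM after TBI and 111, 157 and 197 CPM after sham. Its log2 fold change was 0.88 ± 0.24 (edgeR adjusted p = 0.0179), and on day 2 the same RNAs gave 0.80 ± 0.28 with an adjusted p of 0.082. The day 1 call was lost without sham replicate 1 or 2 or TBI replicate 3, at 0.69 to 0.89. Neuronal markers moved at this time too, with 7 of 10 lower on day 1 and none called on day 2, and their part was not tested.

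Obp83a and Obp83b encode abundant proteins of antennal smell bristles and lie next to each other on 3R (BDGP6.54, chr3R:5972155-5976817, minus strand). Both were near 0 in most libraries and high in a few. Obp83a exceeded 3 CPM in 8 of 64 libraries, which came from 7 RNAs, at 3.53 to 21.4 CPM. In the other 56 libraries it ranged from 0 to 1.64 CPM with a median of 0.205 CPM.

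The 8 libraries were the 3 TBI libraries at 10 d, TBI replicate 1 at 24 h on both library days, TBI replicate 1 at 7 d, TBI replicate 2 at 3 h, and 1 sham library, replicate 2 at 1 h. In these libraries Obp83b was at 4.78 to 24.4 CPM, against at most 1.34 CPM elsewhere. Obp84a, another antennal member, was at 0.421 to 2.36 CPM against at most 0.394 CPM. Obp59a, known from humidity-sensing bristles of the antenna, was at 0 in all 56 other libraries and at up to 1.48 CPM in these 8. Not all antennal members set these libraries apart. On day 2 Obp28a was at 0.491 to 0.631 CPM in the 3 libraries with high Obp83a and 0.128 to 1.46 CPM in the others. Obp19d was at 130 to 181 and 85.2 to 232 CPM there. On day 1 the ranges of both genes overlapped too.

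Of the antennal genes outside the family, Os-C and a5 were high in the same libraries. Os-C was at 1.47 to 15.4 CPM in the 8 libraries and at most 1.12 CPM in the other 56, and a5 was at 1.73 to 4.50 CPM and at most 0.699 CPM. Or22a stayed at 0 to 0.230 CPM in the 8. The antennal carrier gene a10 overlapped, at 2.42 to 26.4 CPM in the 8 and 0.199 to 14.3 CPM in the other 56. Orco, the co-receptor of most odorant receptors, was at 1.52 to 6.71 CPM and overlapped the range of the others, 0.699 to 4.60 CPM. The pheromone-binding protein gene lush, which encodes a member of the protein family under another symbol, was at 3.96 to 8.57 CPM against 0.812 to 6.37 CPM. Heads were separated from frozen flies by vortexing, per the labels' protocol, and how many antennae stayed on the heads of each sample is not recorded, so its part in these values was not tested.

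**Figure D4:**
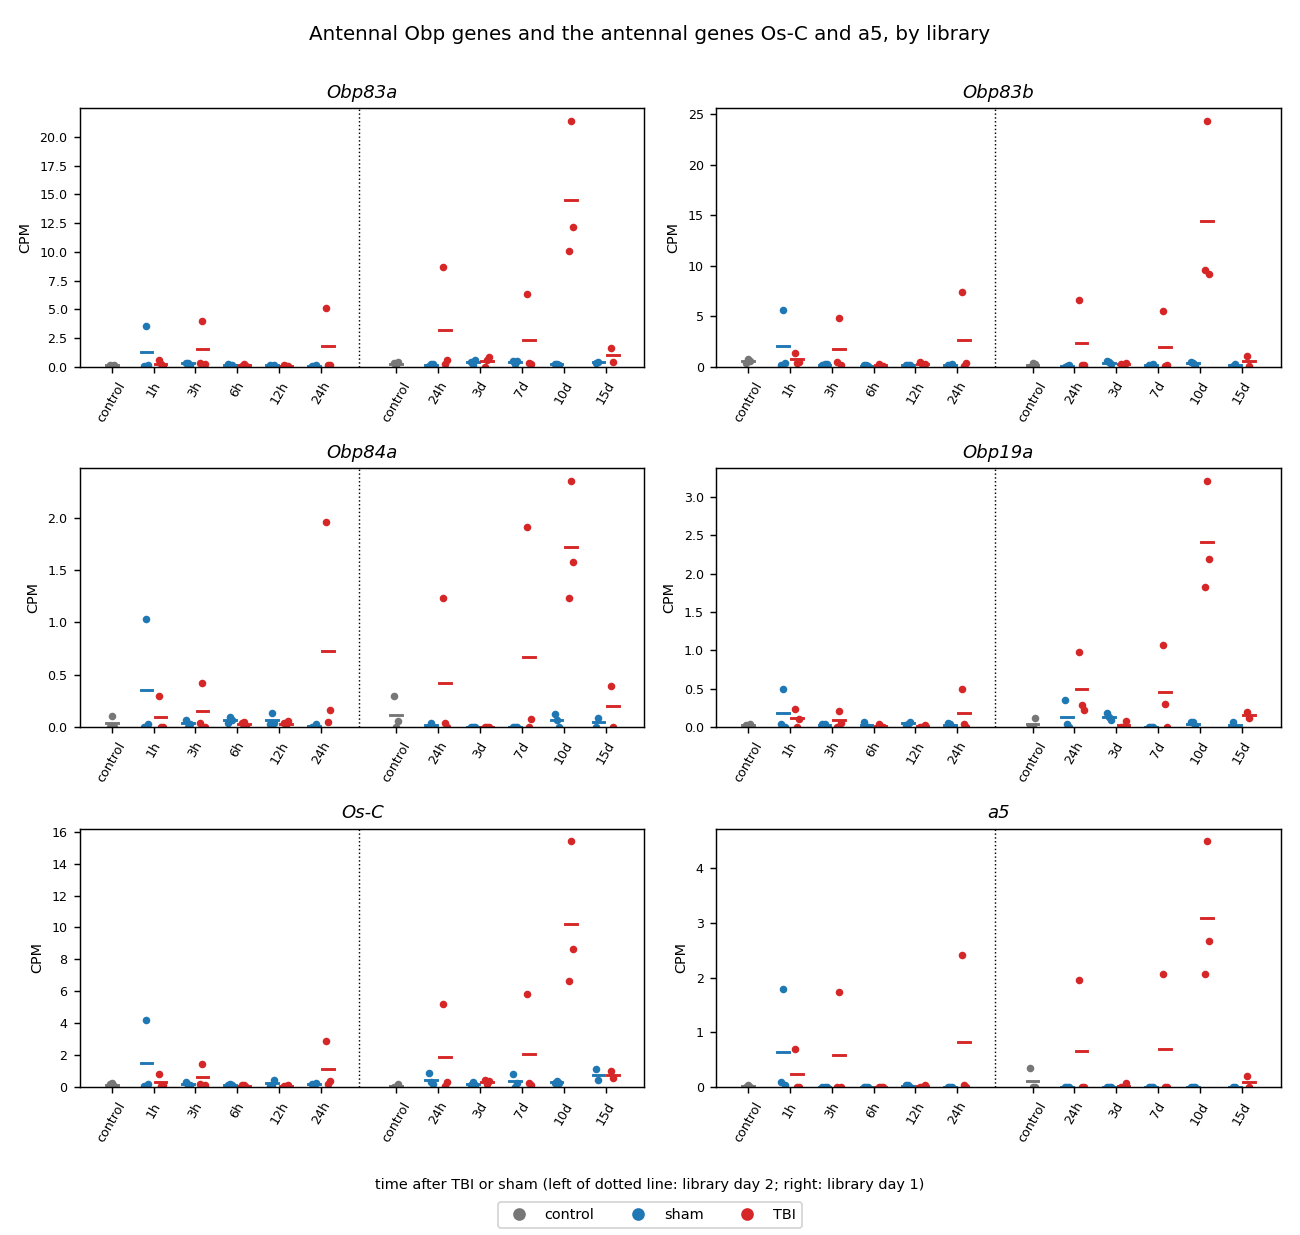
Level in CPM of the antennal members Obp83a, Obp83b, Obp84a and Obp19a and of the antennal genes Os-C and a5 in every library, by time after TBI or sham. Points are libraries and bars are group means, with library day 2 left of the dotted line. The same 8 libraries stand out for Obp83a, Os-C and a5, among them all 3 TBI libraries at 10 d and 1 sham library at 1 h.

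At 24 h Obp83a held 8.66, 0.248 and 0.577 CPM in the TBI libraries of day 1 and 0.0592, 0.207 and 0.287 CPM in the sham libraries. Its call (log2 fold change 3.95 ± 1.24, edgeR adjusted p = 0.0353) and that of Obp83b (4.22 ± 1.42, edgeR adjusted p = 0.0483) rested on TBI replicate 1. Without that library they were 1.11 with an adjusted p of 0.644 and 0.76 with an adjusted p of 0.826. Both calls were also lost without any 1 of the 3 sham libraries, at 3.60 to 4.81. On day 2 neither passed, at adjusted p of 0.0658 and 0.0954.

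At 10 d 3 of 31 members were called, where 0.473% of all genes tested were (0.464% higher), all 3 higher and all antennal. Of the 9 tested members of the antennal list, 3 were thus higher and none was lower. That list also holds Obp69a and Obp56d, which were not called. With each TBI library left out in turn, their log2 fold changes were 0.09 to 0.14 and 0.11 to 0.44. Of the 3 called, Obp19a passed the filter on day 1 alone. It was at most 0.355 CPM outside the 5 libraries of that day with high Obp83a, so it entered the test through libraries in which it was high. Its call, and the count of 3 set against all genes, are therefore descriptions only. Obp83a held 10.1, 21.4 and 12.1 CPM after TBI and 0.255, 0.268 and 0.148 CPM after sham. Over 681 and 10 reads the ratio was 61.5, with an exact 95% interval of 33.3 to 129 that covers counting error only. Obp19a held 1.83, 3.21 and 2.19 CPM against 0.0638, 0.0670 and 0 CPM, or 114 against 2 reads, a ratio of 51.5 (13.9 to 431).

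Obp28a, an antennal member known for binding floral odours, held 6.02, 6.07 and 3.36 CPM against 0.893, 0.603 and 0.664 CPM, without overlap. Fitted log2 fold changes were 5.96 ± 1.24 for Obp83a (edgeR adjusted p = 0.0336), 5.51 ± 1.04 for Obp19a (0.0175) and 2.82 ± 0.57 for Obp28a (0.028). Obp83b, at 9.62, 24.4 and 9.19 CPM after TBI, had an edgeR adjusted p of 0.0503. No member was called at 10 d without any 1 of the 3 sham libraries or without TBI replicate 2. In the same comparison lush was higher (log2 fold change 1.74 ± 0.31, edgeR adjusted p = 0.0102), the summed antennal marker level was 114 to 153 CPM after TBI and 73.4 to 102 CPM after sham, and 1 and 12 of 40 markers were at 0 in the whole group. The part of differing antennal content in these calls was not tested.

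The summed antennal markers were also wholly higher after TBI at other times. At 6 h the sums were 115 to 147 CPM after TBI and 68.8 to 82.2 CPM after sham, and at 1 h they were 108 to 135 and 91.4 to 104 CPM. At 24 h they were 118 to 130 and 76.1 to 93.4 CPM on day 2, and 92.6 to 107 and 60.4 to 78.3 CPM on day 1. The groups overlapped at the remaining times. Of 16 tested markers 2, 1, 3, 2 and 2 were higher at 1, 3, 6, 12 and 24 h on day 2, and none was lower. Over all genes 7.39%, 16.5%, 12.1%, 8.62% and 8.40% were called at these times in either direction. The markers called were Gr63a, a subunit of the carbon dioxide receptor, at all 5 times, Snmp2, a membrane protein gene, at 4 of them, and the odorant receptor gene Or67b at 6 h. The counts are thus mostly the same few genes. Snmp2 counts toward the sums, and its part in them is given for 6 h only. At 6 h Snmp2 alone was at 69.4 to 91.3 CPM after TBI and 30.5 to 32.5 CPM after sham, a large part of the sums above. Its log2 fold change was 1.40 ± 0.18 (edgeR adjusted p = 2.46e-06). Gr63a rose there by a log2 fold change of 3.59 ± 0.28 (edgeR adjusted p = 1.24e-09). At 6 h no Obp gene of the antennal list was called.

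Obp28a and Obp19d were also set against Orco across libraries within groups, on log2(CPM + 1). Obp19d gave a Pearson r of -0.23 on day 2 (33 libraries, Spearman rho -0.39) and 0.03 on day 1 (31 libraries, rho -0.05). Obp28a gave r of 0.37 (rho 0.30) and 0.35 (rho 0.30). None of the 8 relations tested, which included Obp83a and Obp83b, passed in permutations within groups with Benjamini-Hochberg adjustment, and the adjusted permutation p of these 4 values of r were 0.168, 0.890, 0.256 and 0.224. The 4 permutation p for rho were 0.0273, 0.832, 0.149 and 0.180 before and 0.109, 0.832, 0.288 and 0.288 after adjustment. Without the 2 libraries farthest in Orco, r was -0.28 and -0.10 for Obp19d and 0.22 and 0.29 for Obp28a. For Obp83a and Obp83b the libraries fall into separate clusters, so no pooled r is given. By rank, rho was 0.18 on day 2 and 0.52 on day 1 for Obp83a, and 0.43 and 0.22 for Obp83b. Their permutation p for rho were 0.431, 0.0182, 0.0549 and 0.351 before adjustment and 0.493, 0.109, 0.146 and 0.468 after it.

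At 3 d none of 31 members was called by edgeR, where 1.35% of all genes were, and 1 had an unadjusted p under 0.05 while DESeq2 called 0. At 7 d none was called where 0.227% of all genes were, while 10 had an unadjusted p under 0.05 and DESeq2 called 2, Obp99d and Obp19c. These percentages are for the edgeR adjusted p. The share of all genes at an unadjusted p under 0.05 or by DESeq2 is not given here, so those counts have no background beside them. At 7 d 26 of 31 members had a log2 fold change above 0, and the median was 0.37 beside 0.01 over all genes tested. The 9 members of the antennal list had a median of 2.37 there, and TBI replicate 1 was 1 of the 8 libraries with high Obp83a. Obp19a, Obp59a and Obp84a were kept on day 1 alone, through such libraries. The count of 26, with no share over all genes beside it, is thus a description only. Obp19c held a mean of 12.4 CPM after TBI and 7.44 CPM after sham, a log2 fold change of 0.73 ± 0.17 with an edgeR adjusted p of 0.0576. Obp19d, one of the most abundant members and known from taste and antennal tissue, held 937, 1358 and 1281 CPM after TBI and 544, 830 and 664 CPM after sham, without overlap and with an edgeR adjusted p of 0.355.

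At 15 d 1 of 31 members was called where 0.0379% of all genes were, 4 genes in all. Obp56g, made in taste bristles of the head and in the male reproductive tract, held 58.1 and 41.8 CPM in the TBI libraries and 163 and 191 CPM in the sham libraries. The log2 fold change was -1.82 ± 0.30 (edgeR adjusted p = 0.0147, n = 2 against 2 in a fit over all groups). The call was lost without either sham library, at -1.93 and -1.72, and without TBI replicate 2, at -1.62. The other 3 tested members of the male reproductive list, Obp8a, Obp56e and Obp56f, were not called.

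Obp83ef was higher in sham heads from 7 d on than at 24 h. Age and the time since the sham procedure differ together in these comparisons and cannot be told apart. At 24 h on day 1 its sham libraries held 0.947, 1.20 and 1.67 CPM, at 7 d 3.15, 3.97 and 5.18 CPM, at 10 d 5.17, 5.83 and 6.72 CPM, and at 15 d 11.03 and 5.86 CPM. Every library at 7 d or later was above every library at 24 h. Against 24 h the log2 fold changes were 1.67 ± 0.36, 2.19 ± 0.35 and 2.70 ± 0.36 (edgeR adjusted p = 0.00404, 0.000112 and 1.72e-05).

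The joint test among sham times called 2 of 31 members, Obp83ef and Obp99b, where 14% of all genes were called. At 3 d against 24 h 0 of 31 were called by edgeR (0.293% of genes), 3 had an unadjusted p under 0.05, and DESeq2 called 1. The unadjusted and DESeq2 counts have no share over all genes beside them. By edgeR the calls were 2 of 31 at 7 d (8.86% of genes), 4 at 10 d (19.8%) and 3 at 15 d (20.0%), so the family's share was below the background at the later times. Without sham 24 h replicate 1 the counts were 1 at each of 7 d, 10 d and 15 d. Cell type markers moved in the same comparisons. At 7, 10 and 15 d 5, 8 and 7 of 10 neuronal markers were lower and 6, 6 and 5 of 12 photoreceptor markers higher than at 24 h, and 3 of 10 glial markers were lower each time. Neuronal sums were 7520 to 11174 CPM at 24 h and 5875 to 7076 CPM from 7 d on, photoreceptor sums 69676 to 77995 and 82940 to 109197 CPM, and glial sums 1971 to 2463 and 1249 to 1850 CPM. No marker of these lists was at 0 in a whole group, and their part in the changes of the members over these times was not tested.

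Obp99b was higher at 7 d and 10 d than at 24 h and varied widely between libraries. Its sham libraries held 68.3, 81.7 and 86.7 CPM at 24 h and 295, 457 and 523 CPM at 7 d, a log2 fold change of 2.43 ± 0.66 (edgeR adjusted p = 0.0243). At 10 d they held 376, 884 and 64.3 CPM, so that 1 library was below all 24 h libraries (2.48 ± 0.66, edgeR adjusted p = 0.0115). Without sham 10 d replicate 2 the value was 1.48 and no longer passed. It was not called at 3 d, at 2.14 ± 0.65 (edgeR adjusted p = 0.141), nor at 15 d, the oldest age, at 0.58 ± 0.69 (edgeR adjusted p = 0.606).

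Obp56a rose from 4.97, 2.82 and 6.07 CPM at 24 h to 25.0, 20.9 and 8.71 CPM at 10 d (log2 fold change 1.99 ± 0.61, edgeR adjusted p = 0.0239). Obp49a, known for dampening sweet-sensing neurons in the presence of bitter compounds, rose by a log2 fold change of 0.54 ± 0.19 at 10 d and 0.70 ± 0.21 at 15 d (edgeR adjusted p = 0.0442 and 0.0188). Obp99d fell from 4.62, 5.23 and 8.46 CPM at 24 h to 0.944 and 3.62 CPM at 15 d (-1.37 ± 0.47, edgeR adjusted p = 0.0421). Of these calls, only that of Obp83ef held at all its times when any 1 library was left out.

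Sham heads were set against the uninjured control of the same library day, taken at time 0. The comparisons of a day share the same control libraries. Handling and the time since the procedure differ together here and cannot be told apart. At 12 h 5 of 29 members were called, where 5.80% of all genes were. Obp56g held 139, 142 and 126 CPM after sham and 233, 308 and 327 CPM in the control, with no overlap (log2 fold change -1.09 ± 0.17, edgeR adjusted p = 0.000374). Obp19b, Obp49a and Obp99d were also lower, at -0.99, -0.54 and -1.35, and Obp56f was higher at 1.65. The count was 3 without sham replicate 1, sham replicate 2 or control replicate 3, and 2 without control replicate 2.

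At the other times edgeR called no member. At 1 h, 3 h and 6 h 0.438%, 0.363% and 3.12% of all genes were called, and 2, 2 and 5 members had an unadjusted p under 0.05. At 24 h 1.28% of genes were called on day 2 and 2.09% on day 1, with 4 and 1 such members. DESeq2 called 1 member at 6 h, Obp19b, and 1 at 24 h on day 2, Obp99d, and 0 at the other 3. The percentages are for the edgeR adjusted p, so the unadjusted and DESeq2 counts have no background beside them.

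Obp69a, a member known to respond to the pheromone environment, had its lowest mean levels at 6 h and 12 h in both arms on day 2, which is given as a description. Control libraries held 25.7, 25.4 and 16.8 CPM on day 2, and the sham libraries at 1 h 22.3, 22.5 and 19.7 CPM. At 6 h sham libraries held 6.80, 9.55 and 12.7 CPM and TBI libraries 7.23, 9.57 and 13.1 CPM. At 12 h the TBI libraries held 3.39, 2.49 and 2.82 CPM. At 24 h sham stood again at 20.9, 20.7 and 15.4 CPM.

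The sham libraries at 12 h did not agree on Obp69a, at 3.22, 2.64 and 19.0 CPM. Its call as lower after TBI at 12 h (log2 fold change -1.53 ± 0.48, edgeR adjusted p = 0.0453) rested on the third of these, and without sham replicate 3 it was -0.02 with an adjusted p of 0.984. It was also lost without any 1 of the 3 TBI libraries, at -1.43 to -1.65. Against the control, sham at 12 h was -1.44 with an adjusted p of 0.0542 with that library and -2.94 with an adjusted p of 2.19e-06 without it. That library was singled out by its own value, so the value without it is no independent test. At 6 h sham against control was -1.22 with an adjusted p of 0.143. The labels give no clock time of sampling.

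Sham 12 h replicate 3 stood apart in other members as well. It held 31.1 CPM of Obp56a against 3.22 and 3.09 CPM in the other two libraries, and 244 CPM of Obp99b against 49.9 and 43.3 CPM. The antennal carrier gene a10 reached 12.3 CPM there. Without this library 7 members were called between sham and control at 12 h, Obp69a and Obp8a being added. It is used as labelled.

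**Figure D5:**
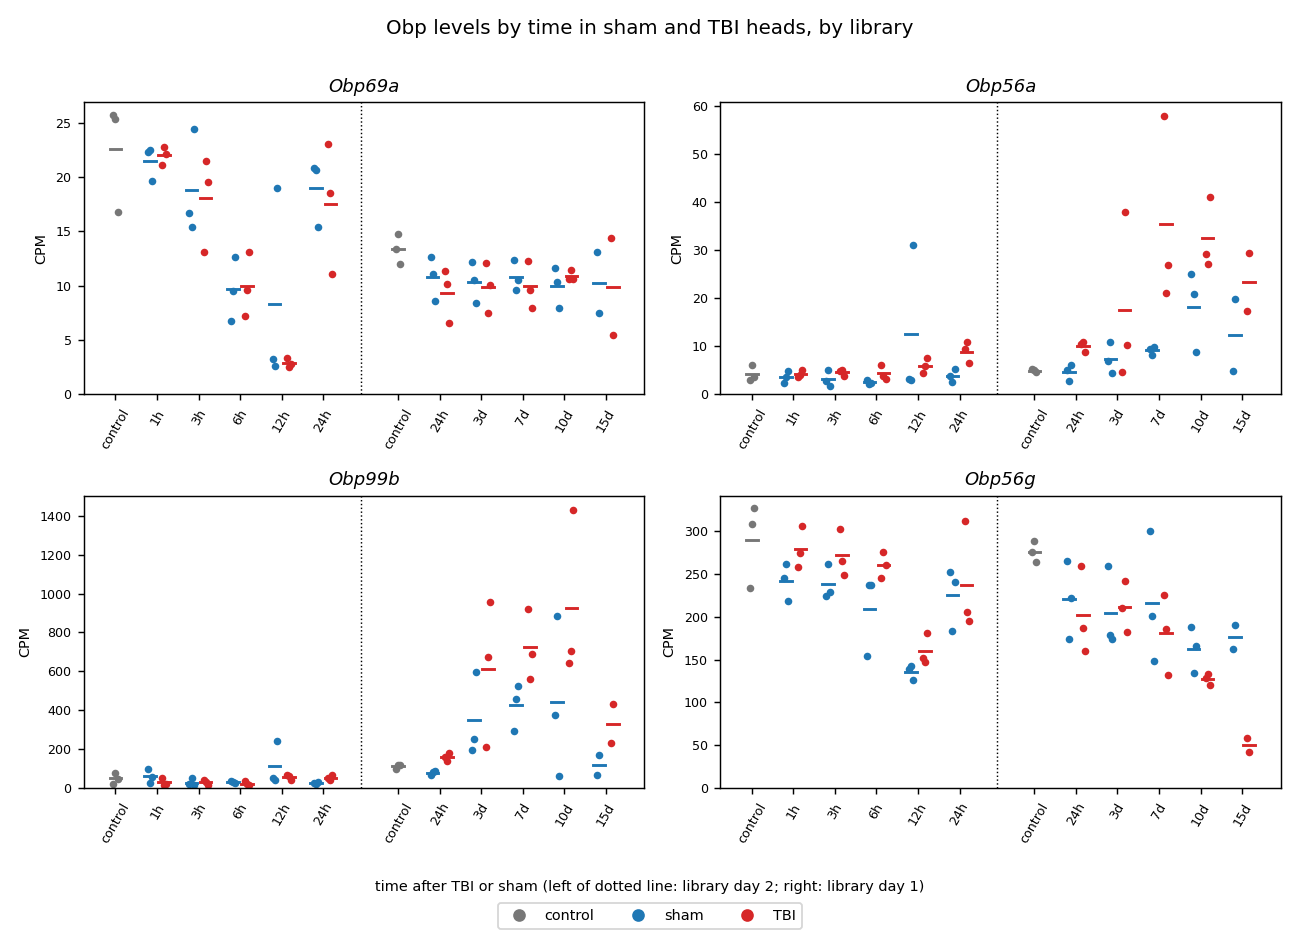
Level in CPM of Obp69a, Obp56a, Obp99b and Obp56g in every library by time, with library day 2 left of the dotted line and day 1 right of it. Points are libraries and bars are group means. Obp69a is lowest at 12 h apart from 1 sham library at 19.0 CPM, and the same library is high for Obp56a and Obp99b.

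Small carrier genes outside the family gave a mixed picture after TBI. At 6 h 2 of the 12 tested genes of that list were higher and 3 lower, and at 3 h 3 were higher and 1 lower. Phk-3, a chemosensory protein gene, was higher at 3 h (log2 fold change 1.54 ± 0.30, edgeR adjusted p = 0.000529). Npc2h, of the sterol-binding NPC2 family, was lower at 3 h at -0.87 ± 0.21 (edgeR adjusted p = 0.00428). Of 14 fat body genes 2, 4, 3, 5 and 3 were lower after TBI at 1, 3, 6, 12 and 24 h on day 2 and none was higher, while the others did not pass. Over all genes 7.39%, 16.5%, 12.1%, 8.62% and 8.40% were called at these times in either direction. Obp99b, the member known from male fat body, was not called at any of these times.

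The library day itself moved most members. On the 9 RNAs prepared on both days, 22 of 28 members were called between days with the RNA as a block, where 66.2% of all genes were. Obp57a, Obp57b and Obp57c were higher on day 2 by log2 fold changes of 1.06, 1.03 and 1.08, as was Obp69a by 1.09. Obp19d was lower on day 2 at -1.70 ± 0.06, Obp44a at -1.30 ± 0.09 and Obp99c at -1.05 ± 0.13. In all 10 members were higher and 12 lower on day 2, where 34.2% and 32% of all genes were. Levels of the same RNA thus depended on the library day.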

How the data were processed

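Whole-head poly(A) RNA was sequenced from 64 libraries. The deposited table holds raw counts per gene (17481 rows and 5 categories of unassigned reads, the latter left out). Per the submitters' processing notes, the authors used FastQC, MultiQC, HISAT2, Picard, HTSeq and DESeq2; no source used here gives versions, build or strand setting. Counts were used as deposited. Quasi-likelihood models of edgeR 4.0.16 (R 4.3.3), 1 per library day over its 11 groups, used TMM factors, filterByExpr and robust estimation and tested 10739 genes (day 2) and 10567 (day 1). CPM values divide counts by library size and TMM factor. Standard errors are the absolute log2 fold change over the square root of F. P-values were Benjamini-Hochberg adjusted over all genes, with a threshold of 0.05. Shares over all genes are given for edgeR calls only, so counts by DESeq2 or at an unadjusted p have no background. The procedure was tested on simulated data. Alternatives were RLE factors, no filter, DESeq2 1.42.0, the replicate number as a block and leaving out each library. Orco relations used 100000 permutations within groups.

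Members and lists (9 marker lists and 3 lists of Obp genes) were chosen with earlier results of these data known. Named members were those called after TBI (up to 12, so Obp83b falls outside and was added after its values were seen), those called with age (up to 6) and the 6 highest by mean level. Obp19c and the antennal genes Os-C, a5, a10, Obp84a and Obp59a were also named after their values were seen. The labels call replicates biological but do not say how cultures were separated, so p-values measure the spread between these pools. Intervals cover counting error only.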

Additional observations from a re-analysis of the deposited data

Results flagged for a closer look

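The effect of TBI differed among the 5 times of library day 2, by the joint test of the TBI and time terms in edgeR, for 3 of 29 members, where 3.68% of all genes were called. For Obp83ef the adjusted p was 0.00462, with log2 fold changes of -1.46 at 1 h and 0.80 at 24 h. For Obp99d it was 0.0156, with -0.08 at 3 h and 2.03 at 6 h. For Obp57b it was 0.0365, with -0.99 at 3 h and 0.16 at 24 h. On day 1 the joint test called 0 of 31 members, where 0.407% of genes were called, with 8 at an unadjusted p under 0.05 and 1 called by DESeq2. The counts of 8 and 1 have no share over all genes beside them. Single outlying libraries were not tested for in groups of 2 or 3.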

How the results depend on the processing

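Depth limits the members near 0 most: a level under 0.2 CPM is a few reads, and the filter on low counts kept some antennal members on day 1 through the few libraries that held them. RLE factors moved no count of called members by over 1.5 times. Without the filter the count was 1 at 24 h on day 2, 3 at 24 h on day 1, and 1 in the joint test of sham times. DESeq2 called 7 members after TBI at 24 h on day 2, 2 at 7 d and 2 at 15 d, 1 in sham against control at 6 h and 1 at 24 h on day 2, 1 in sham at 3 d against 24 h, and 1 in the joint TBI test of day 1. Without each library in turn, the TBI counts ranged over 1 to 1 at 1 h, 2 to 4 at 3 h, 1 to 3 at 6 h, 2 to 4 at 12 h, 1 to 5 at 24 h on day 2, 1 to 5 at 24 h on day 1, 0 to 0 at 3 d, 0 to 1 at 7 d, 0 to 4 at 10 d and 0 to 1 at 15 d. For sham against control they ranged over 0 to 0 at 1 h, 0 to 1 at 3 h, 0 to 2 at 6 h, 2 to 7 at 12 h, 0 to 2 at 24 h on day 2 and 0 to 0 on day 1. For sham ages they were 0 to 0 at 3 d, 1 to 2 at 7 d, 1 to 6 at 10 d and 1 to 2 at 15 d, and for the joint tests 2 to 4 (TBI, day 2), 0 to 1 (TBI, day 1) and 1 to 3 (sham). The library day count ranged from 20 to 24. Of 34 single values followed, 11 passed without any 1 library and none reversed. With RLE factors 34 kept their call, without the filter 26, and with the block 31. The causes were not tested.

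The replicate number was tried as a block. Same-numbered sham and TBI libraries had correlations of their deviations from -0.19 to 0.70 over 29 pairs, and 24 sham libraries correlated best with the TBI library of their number, a hint of pairing from the data. Every pair was over 0.1 at 7 of 10 times but not at 3 h, 12 h and 24 h on day 1, and the labels tie no number to a shared batch, so the numbers were not taken to pair the samples. With the block 1 member was called at 7 d (Obp19c) and 1 in the joint TBI test of day 1 (Obp56g), Obp69a was called in sham against control at 12 h, and the calls of Obp69a at 12 h and of Obp83a and Obp83b at 24 h on day 1 no longer passed.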
